A study of Homo sapiens with 10 samples.

Results

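The genes described here are 7 claudins, the tight junction scaffold TJP1 and the junctional adhesion molecule F11R, 9 of the 58050 genes in the table, taken by name as CLDN1, CLDN2, CLDN3, CLDN4, CLDN7, CLDN12, CLDN15, TJP1 and F11R. They were measured in HCT116, a human colorectal carcinoma cell line. HCT116-WT cells are labelled wild type for CD276, a B7 family surface protein also called B7-H3. HCT116-CD276KO cells were edited with Cas9 protein and a guide against CD276, sorted for loss of the protein, and all derive from 1 clone. Polyadenylated RNA was sequenced from 5 cultures of HCT116-WT and 5 of HCT116-CD276KO, all in the same serum-supplemented medium, and every value is in TPM, a share of all transcripts after division by transcript length. The sources do not say whether the HCT116-WT cultures had received the scrambled control guide. With 1 clone, what the loss of CD276 does and what sets the clone apart from its parental line cannot be told apart.

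Claudins are small proteins that span the membrane and meet their partners on the next cell, which closes the space between epithelial cells to ions and solutes. Some, such as CLDN1, CLDN3 and CLDN4, are known as sealing claudins, while CLDN2 and CLDN15 form channels for small cations. TJP1, also called ZO-1, is the cytoplasmic scaffold that ties claudins and occludin to actin, and F11R, also called JAM-A, is an adhesion receptor of the immunoglobulin family that binds the same scaffolds. CLDN7 is unusual in that much of it lies along the lateral membrane, where it binds EPCAM.

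CD276 itself had a mean of 45.3 ± 6.17 TPM (SD, n = 5) in HCT116-WT and 5.46 ± 1.21 TPM (SD, n = 5) in HCT116-CD276KO cells. Of 6 colonic epithelial markers, 5 were above a mean of 1 TPM and VIL1 was not, and the 6 summed to between 3007 and 3473 TPM in HCT116-WT and between 2320 and 2622 TPM in HCT116-CD276KO libraries. The 5 leukocyte markers summed to at most 0.37 TPM and the 3 endothelial markers to at most 0.59 TPM. Of 4 fibroblast markers COL1A1 alone was above 1 TPM, at up to 8.84 TPM. KRT8 and KRT18 made up most of the sum of the epithelial markers. Of the 5 epithelial markers above 1 TPM, limma called 4 lower (adjusted p-value under 0.05), against 4.09% of all genes tested. CDH1, which encodes E-cadherin, fell from 42.7 to 20.4 TPM (log2 fold change -1.07, adjusted p-value 0.00311) and EPCAM from 259.7 to 202.2 TPM (-0.35, 0.0322). The others were KRT8 (-0.42, 0.00441) and KRT18 (-0.39, 0.00263). CDX2, an intestinal transcription factor, had means of 8.91 and 9.27 TPM (0.07, 0.786). The part of these markers in the results was not tested. In bulk RNA, fewer cells with a transcript and less of it per cell cannot be told apart.

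RefSeq start regions (GRCh38.p14, 250 bases before to 50 after a start) were found for 8 of the 9 genes, and those of CLDN3 and CLDN7 are printed for their 250 upstream bases because CLDN7 was called lower between the groups and CLDN3 was not called. The window of CLDN4 overlaps an exon of a longer CLDN4 transcript, so 30 bases are shown for it. The bases printed for CLDN7 also lie within the annotated span of that gene, which reaches base 7263983. Each is on the gene's strand, 5′ to 3′, and capitals mark every match on either strand to TATAA, the core of a TATA box, or to GGGCGG, a GC box.
CLDN3, chr7:73770271-73770520, minus strand: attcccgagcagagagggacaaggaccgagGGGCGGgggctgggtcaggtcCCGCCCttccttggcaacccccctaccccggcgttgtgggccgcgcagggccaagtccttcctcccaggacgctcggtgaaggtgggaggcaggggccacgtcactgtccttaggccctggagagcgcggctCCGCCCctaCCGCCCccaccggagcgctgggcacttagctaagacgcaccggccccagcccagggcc
CLDN7, chr17:7263214-7263463, minus strand: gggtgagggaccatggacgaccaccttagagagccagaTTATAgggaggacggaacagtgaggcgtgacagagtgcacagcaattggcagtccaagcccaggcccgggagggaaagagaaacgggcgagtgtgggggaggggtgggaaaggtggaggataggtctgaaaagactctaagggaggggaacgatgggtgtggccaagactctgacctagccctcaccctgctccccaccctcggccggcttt
CLDN4, chr7:73830956-73830985, plus strand: tctgccagagccaTATAActgctcaacctg

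In CLDN4 the match to TATAA began at position -27 from the start, on the gene's strand. In CLDN7 it lay on the opposite strand, at position -212 from the first of 2 listed starts. CLDN3 had no match to TATAA but 6 to GGGCGG in the whole window, against 1 in CLDN4 and 0 at that start of CLDN7. The second start of CLDN7 had 2 matches to GGGCGG. Of the other genes, CLDN1 had 2, CLDN15 had 1, and CLDN12 and both starts of CLDN2 had 0. The 4 starts of TJP1 had 3, 3, 1 and 0. Of all 35116 windows of this length, 20.4% held TATAA and 45% held GGGCGG. The letters CAGGTG, an E-box known to bind SNAI and ZEB repressors, occur in 20.6% of the windows. They were found at the start of CLDN3, at the first start of TJP1 and 5 times around the second start of CLDN7, and were not in the window of CLDN4. They are shown for TJP1, on chr15:29969120-29969149 of the minus strand, as gcggccggcgcgCAGGTGgcccggcctcgc, and for CLDN3, on chr7:73770221-73770250 of the minus strand, as cccacaaagccacaggCAGGTGcaggcgca. The core AACCNGTT of grainyhead-like factors, present in 1.73% of all windows, was in none of the 13 windows of these genes. GRHL2, the grainyhead-like factor known to activate CLDN4 in other epithelia, stood at a mean of 9.53 TPM in HCT116-WT and 4.54 TPM in HCT116-CD276KO cells (log2 fold change -0.97, adjusted p-value 0.00732 from limma). Whether GRHL2 had a part in the level of CLDN4 was not tested. A match in these letters is a description and shows no binding.

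The claudin RNA of HCT116 cells was mostly that of CLDN7 and CLDN4. In HCT116-WT libraries the levels ran in the order CLDN7, CLDN4, F11R, TJP1, CLDN12, CLDN3, CLDN15, CLDN2 and CLDN1, and neighbours in this order did not overlap over the 5 libraries except CLDN2 and CLDN1. The group means of HCT116-CD276KO cells kept this order. There, however, CLDN4 and F11R overlapped, with CLDN4 the higher in 2 of 5 libraries, and so did the ranges of TJP1 and CLDN12, although TJP1 was the higher in each of the 5.

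**Figure D1:**
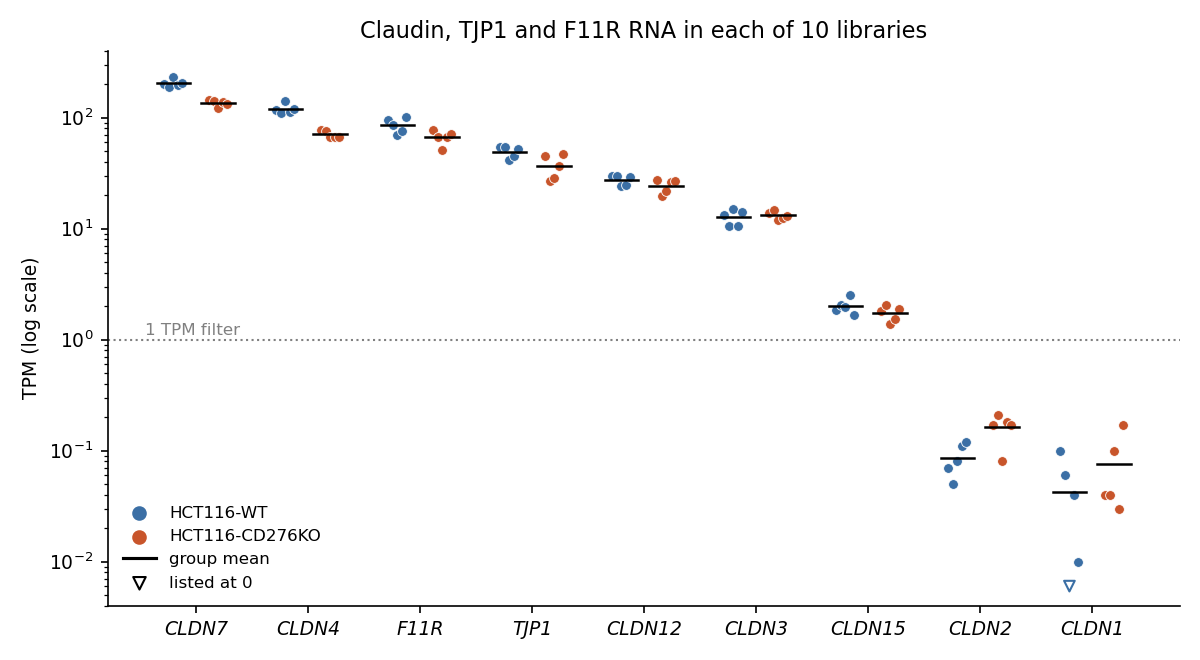
TPM of the 9 genes on a log axis, with 1 point per library, black bars for the mean of 5 libraries, and a triangle for the HCT116-WT library in which CLDN1 is listed at 0. CLDN7 and CLDN4 lie lower in every HCT116-CD276KO library than in any HCT116-WT library, CLDN3 overlaps, and CLDN2 and CLDN1 stay under 1 TPM.

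Summed over all 24 claudin genes of the table, claudin RNA had a mean of 369.2 ± 28.6 TPM (SD, n = 5) in HCT116-WT and of 247.4 ± 15.4 TPM (SD, n = 5) in HCT116-CD276KO libraries. The lowest HCT116-WT library held 343.2 TPM and the highest HCT116-CD276KO library 266.4 TPM. CLDN7 made up 55.4% ± 0.60 (SD, n = 5) of the sum in HCT116-WT and 54.8% ± 0.77 in HCT116-CD276KO libraries, so the share of the most abundant claudin differed by less than 1 percentage point. The share of CLDN4 was 32.6% ± 0.91 and 28.5% ± 1.14, that of CLDN12 7.50% ± 1.14 and 9.84% ± 1.28, and that of CLDN3 3.41% ± 0.35 and 5.31% ± 0.28. Without CLDN4 and CLDN7 the remaining claudins summed to 44.3 ± 3.03 TPM and 41.3 ± 3.55 TPM. The sum and the shares are given without a test, as the genes were chosen with results of these data known.

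**Figure D2:**
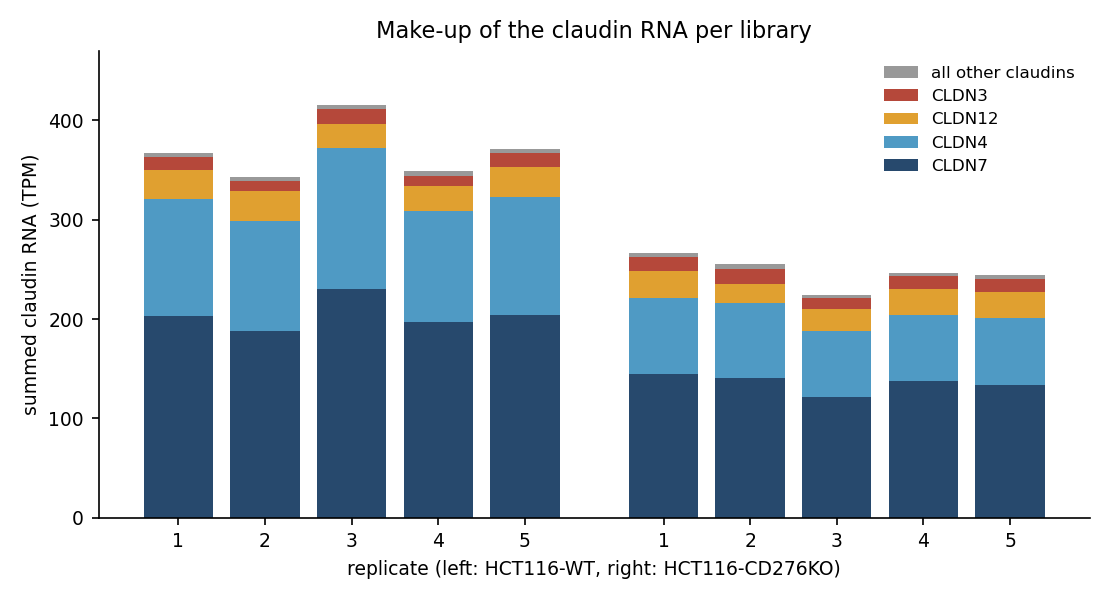
Summed claudin TPM in each of the 10 libraries, stacked by gene from CLDN7 at the base. The bars of HCT116-CD276KO are lower through their CLDN7 and CLDN4 parts, while the CLDN12 and CLDN3 parts keep about the same height.

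To ask which of these genes differed between the groups, the 13581 genes that averaged 1 TPM or more were compared on log2(TPM + 1) with limma, and a gene was called where its p-value, adjusted over all these genes, was under 0.05. This scale understates the change of genes with few TPM. CLDN1 and CLDN2 were under 1 TPM, so 7 of the 9 were tested. Of the 7, 2 were called, CLDN4 and CLDN7, against 4.87% of all genes tested. Both were lower in HCT116-CD276KO cells, as were 4.09% of all genes, and 0 of the 7 were called higher, against 0.781%. The split over all genes depends on scaling: of the genes called, 84% were lower in the values as deposited, 66.2% with median-of-ratios scaling, 60.3% with quantile normalization and 53.8% after removal of the part of each library's values that followed transcript length and GC content, here called the length and GC trend. An unadjusted p-value under 0.05 was found for 4 of the 7, all lower, against 21.9% of all genes tested, or 17.6% counting lower genes alone. The groups did not overlap in the same 2 genes, with lower levels in HCT116-CD276KO cells, as in 6.19% of all genes tested, or 7.61% in either direction. The median log2 fold change was -0.35 over the 7 and -0.09 over all genes, and with the length and GC trend removed it was -0.18 over the 7 and 0.01 over all genes. None of the 7 changed by 2-fold, a size that 0.486% of all genes tested reached with an adjusted p-value under 0.05.

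CLDN4 (ENSG00000189143) occupies bases 73799542 to 73832690 of chromosome 7 (hg38, plus strand), and the other positions are of the same build. CLDN4 stood at 117.67, 110.63, 142.11, 112.42 and 119.11 TPM in HCT116-WT replicates 1 to 5. The HCT116-CD276KO replicates, in the same order, held 76.79, 74.97, 66.83, 67.01 and 67.32 TPM. The groups were well apart, and HCT116-WT replicate 3 was the highest library. CLDN4 thus fell from 120.4 ± 12.6 TPM to 70.6 ± 4.88 TPM (SD, n = 5 each), to 58.6% of the HCT116-WT level. The log2 fold change was -0.76 (95% interval -0.93 to -0.59, adjusted p-value 0.000154 from limma), and a two-sided exact permutation test gave p = 0.00794, the smallest that 5 against 5 allow.

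CLDN7 (ENSG00000181885), the EPCAM-binding claudin, lies on chromosome 17 from 7259903 to 7263983 on the minus strand. It stood at 202.74, 188.22, 230.43, 196.81 and 204.22 TPM in HCT116-WT replicates 1 to 5. The HCT116-CD276KO replicates 1 to 5 held 144.44, 141.15, 121.23, 137.5 and 133.48 TPM. Again no library of one group reached those of the other, and HCT116-WT replicate 3 was again the highest. The fall was from 204.5 ± 15.8 TPM to 135.6 ± 8.99 TPM (SD, n = 5 each), to 66.3% of the HCT116-WT level. Its log2 fold change was -0.59 (95% interval -0.74 to -0.44, adjusted p-value 0.000451 from limma, two-sided exact permutation p = 0.00794).

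CLDN3 (ENSG00000165215), another sealing claudin, is the neighbour of CLDN4 on chromosome 7, from 73768997 to 73770270 on the minus strand, with 29271 bases between the annotated genes. It stood at 13.19, 10.5, 15.01, 10.51 and 14.03 TPM in HCT116-WT replicates 1 to 5. The HCT116-CD276KO replicates, in the same order, held 13.68, 14.75, 11.82, 12.56 and 12.94 TPM. The HCT116-CD276KO values all lay within the range of the HCT116-WT values. The log2 fold change was 0.06 (95% interval -0.17 to 0.30, adjusted p-value 0.752 from limma), an interval that holds changes of moderate size in either direction.

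The difference between these neighbours was tested within each library, where a scaling between libraries nearly cancels. CLDN4 was 8.94 times as abundant as CLDN3 in HCT116-WT and 5.06 times in HCT116-CD276KO libraries, on the TPM + 1 scale. The log2 ratio ranged from 3.00 to 3.30 in HCT116-WT and from 2.27 to 2.41 in HCT116-CD276KO libraries, without overlap (difference -0.82, two-sided exact permutation p = 0.00794). The ratio of CLDN4 to CLDN7, chosen after the values had been seen, had a mean log2 of -0.76 ± 0.04 in HCT116-WT and -0.93 ± 0.07 in HCT116-CD276KO libraries (SD, n = 5 each), which is given as a description.

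The surroundings of both genes were looked up after their values had been seen. Within 200 kb of CLDN4, 8 further genes were tested, with a median log2 fold change of -0.02. Of these, 1 was called, MLXIPL, at -0.39 (adjusted p-value 0.0441 from limma), against 4.87% of all genes tested. An unadjusted p-value under 0.05 was found for 2 of the 8, against 21.9% of all genes tested. Within 200 kb of CLDN7, 22 further genes were tested, with a median of 0.02. By limma 0 of these 22 were called, and 2 had an unadjusted p-value under 0.05, against the same shares of all genes. ELP5, which shares 38 exonic bases with CLDN7 on the opposite strand, differed by 0.13 on the log2 scale (adjusted p-value 0.414). On the same strand CLDN7 shares 269 exonic bases with ENSG00000262302, which had a mean of 0.144 TPM over all libraries.

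**Figure D3:**
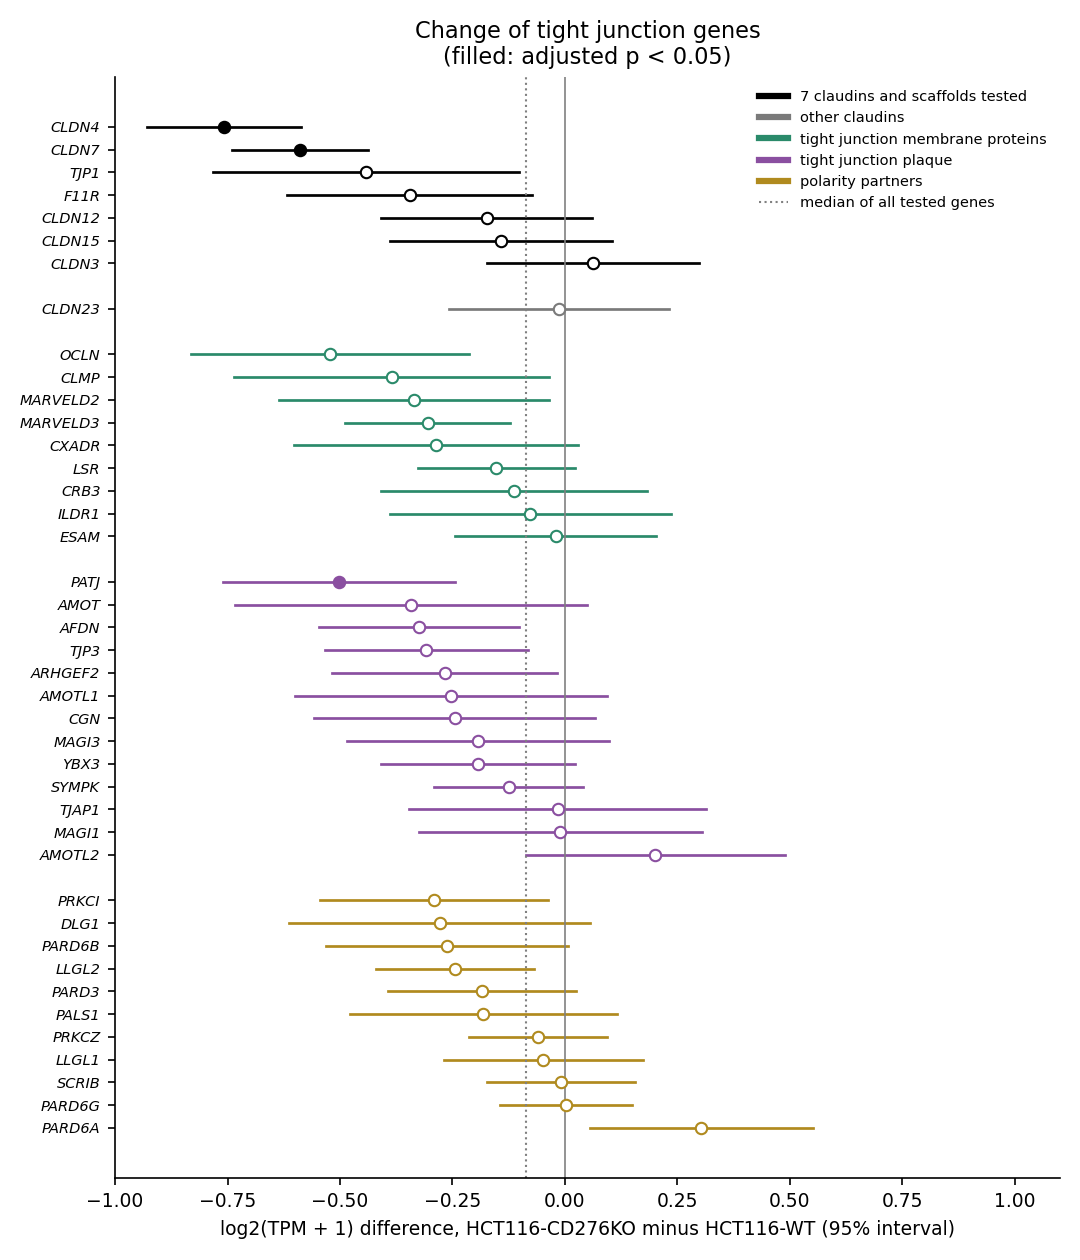
Difference of mean log2(TPM + 1), HCT116-CD276KO minus HCT116-WT, for the 7 tested genes and the 34 other tested genes of tight junctions and polarity complexes, with 95% intervals from limma. Filled points have an adjusted p-value under 0.05: CLDN4, CLDN7 and PATJ, all lower, while the dotted line marks the median of all genes tested at -0.09.

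TJP1 (ENSG00000104067), the ZO-1 scaffold, lies on chromosome 15 from 29699367 to 29968915 on the minus strand. It stood at 53.91, 54.48, 41.63, 44.86 and 52.05 TPM in HCT116-WT replicates 1 to 5. The HCT116-CD276KO replicates 1 to 5 held 44.81, 26.62, 28.71, 36.97 and 46.81 TPM. HCT116-CD276KO replicates 2 and 3 were far below the rest, while replicates 1 and 5 lay among the HCT116-WT values, so the groups overlapped. The coefficient of variation was 11.7% in HCT116-WT and 24.8% in HCT116-CD276KO libraries. The log2 fold change was -0.44 (95% interval -0.78 to -0.10, adjusted p-value 0.130 from limma, two-sided exact permutation p = 0.0397).

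F11R (ENSG00000158769), the JAM-A receptor, lies on chromosome 1 from 160995211 to 161021343 on the minus strand. It stood at 96, 85.54, 69.64, 75.53 and 100.23 TPM in HCT116-WT replicates 1 to 5. The HCT116-CD276KO replicates, in the same order, held 77.38, 67.09, 51.48, 67.14 and 71.77 TPM. The groups overlapped, with replicate 3 the lowest library in each. The log2 fold change was -0.35 (95% interval -0.62 to -0.07, adjusted p-value 0.137 from limma, exact permutation p = 0.0397). F11R shares 1853 exonic bases on the same strand with ENSG00000270149, at means of 21.2 and 16.3 TPM, so how reads were divided between them makes its level uncertain.

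The values of these longer transcripts moved with a property of the libraries. Over all genes tested, a library's deviations from the gene means followed transcript length with Spearman correlations from -0.517 and -0.489 in HCT116-CD276KO replicates 2 and 3 to 0.425 in HCT116-WT replicate 1, over genes, which are not independent. The main transcript has 7190 bases in TJP1 and 4639 in F11R, but 1695 in CLDN4, 1542 in CLDN7 and 1274 in CLDN3. Once each library's trend with length and GC content was removed, the log2 fold change was -0.22 for TJP1 (adjusted p-value 0.0652 from limma) and -0.18 for F11R (0.209). For CLDN4 it was -0.73 (2.05e-06) and for CLDN7 -0.56 (2.91e-05), so the fall of these short transcripts was nearly as large without the trend.

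**Figure D4:**
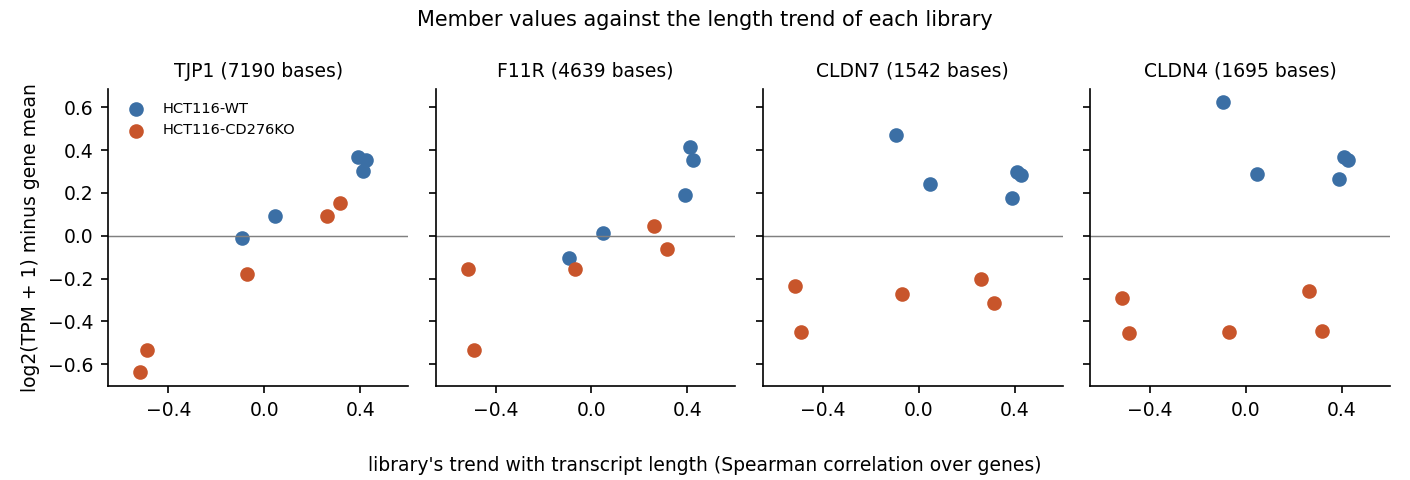
For TJP1, F11R, CLDN7 and CLDN4, each library's log2(TPM + 1) minus the gene's mean is set against that library's Spearman correlation with transcript length. TJP1 and F11R lie lowest in HCT116-CD276KO replicates that stand at the left end, near -0.5, whereas the CLDN7 and CLDN4 values form separate bands for the groups at all positions.

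CLDN12 (ENSG00000157224), a claudin linked to calcium uptake, lies on chromosome 7 from 90383721 to 90513402 on the plus strand. It stood at 29.48, 30.01, 23.95, 24.65 and 29.28 TPM in HCT116-WT and 27.44, 19.64, 21.72, 26.01 and 26.79 TPM in HCT116-CD276KO libraries, each in the order of replicates 1 to 5. The groups overlapped, and the log2 fold change was -0.17 (95% interval -0.41 to 0.06, adjusted p-value 0.345 from limma). Its exons share bases with GTPBP10 and CDK14 on the same strand, 347 and 201 of them, so part of its reads could be counted elsewhere.

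CLDN15 (ENSG00000106404), a cation channel claudin, lies on chromosome 7 from 101232092 to 101238820 on the minus strand. It stood at 1.86, 2.04, 1.97, 2.51 and 1.68 TPM in HCT116-WT and 1.81, 2.06, 1.37, 1.53 and 1.87 TPM in HCT116-CD276KO libraries, each in the order of replicates 1 to 5. The ranges overlapped and the log2 fold change was -0.14 (95% interval -0.39 to 0.10, adjusted p-value 0.459 from limma).

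CLDN2 and CLDN1 stood at no more than 0.21 TPM in any library. CLDN2 (ENSG00000165376, chromosome X from 106900164 to 106930861), the other cation channel, stood at 0.07, 0.05, 0.08, 0.11 and 0.12 TPM in HCT116-WT and 0.17, 0.21, 0.08, 0.18 and 0.17 TPM in HCT116-CD276KO libraries, each in the order of replicates 1 to 5. Of the HCT116-CD276KO libraries, replicate 3 alone lay among the HCT116-WT values. A two-sided exact permutation test gave p = 0.0317 for CLDN2, and limma with no minimum level gave an adjusted p-value of 0.217. CLDN1 (ENSG00000163347, chromosome 3 from 190305707 to 190322446) ranged from 0, as listed in HCT116-WT replicate 3, to 0.1 TPM in HCT116-WT and from 0.03 to 0.17 TPM in HCT116-CD276KO libraries, where limma with no minimum level gave 0.667 after adjustment. How many reads lie behind these levels is unknown.

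The other tight junction genes were taken by role. Of the 17 other claudins of the table, CLDN23 alone reached 1 TPM, with means of 1.68 and 1.66 TPM and a difference of -0.01 on the log2 scale (adjusted p-value 0.950 from limma). The next in level, CLDN9 and CLDN6, had means of 0.224 and 0.112 TPM in HCT116-WT and of 0.082 and 0.070 TPM in HCT116-CD276KO cells.

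Of 13 further membrane proteins 9 were tested, with a median log2 fold change of -0.29. All 9 were below 0, as were 68.1% of all genes tested. With the length and GC trend removed 7 of the 9 were below 0, against 46.9% of all genes, and the median was -0.14. By limma 0 were called, against 4.87% of all genes tested, and 4 had an unadjusted p-value under 0.05, against 21.9%. OCLN, which encodes occludin, stood at 31.27, 28.7, 23.89, 25.69 and 29.27 TPM in HCT116-WT and 22.92, 14.08, 15.4, 20.9 and 23.26 TPM in HCT116-CD276KO libraries, each in the order of replicates 1 to 5. Its groups did not overlap, and its log2 fold change was -0.52 (adjusted p-value 0.0579 from limma). After removal of the length and GC trend it was -0.35 (adjusted p-value 0.00268). LSR, angulin-1 of tricellular junctions, was the most abundant of them, with means of 153.4 and 137.9 TPM (log2 fold change -0.15, adjusted p-value 0.277), and CRB3, a polarity protein of the apical membrane, had means of 18.3 and 16.9 TPM (-0.11, adjusted p-value 0.636).

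Of 16 plaque genes 13 were tested, with a median log2 fold change of -0.25. Of the 13, 12 were below 0, as were 68.1% of all genes tested. With the length and GC trend removed 8 of the 13 were below 0, against 46.9% of all genes, and the median was -0.07. A lower level was called for 1, PATJ, against 4.09% of all genes tested, and higher levels for 0, against 0.781%. Of the 13, 4 had an unadjusted p-value under 0.05, all lower, against the 17.6% of all genes tested. PATJ, a scaffold of the Crumbs complex that binds TJP3 and claudins, fell from 15.04 to 10.43 TPM (log2 fold change -0.50, adjusted p-value 0.0334 from limma). With 1 library left out its adjusted p-value ran from 0.026 to 0.0921, under 0.05 in 3 of 10 fits, those without HCT116-WT replicate 3 and without HCT116-CD276KO replicates 1 or 5. After removal of the length and GC trend the log2 fold change of PATJ was -0.27 (adjusted p-value 0.00374). The most abundant genes of the list were YBX3, an RNA-binding partner of TJP1, SYMPK and ARHGEF2, with log2 fold changes of -0.19, -0.13 and -0.27 and adjusted p-values between 0.202 and 0.340.

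Of 12 polarity partners 11 were tested, and by limma 0 were called, against 4.87% of all genes tested. Of the 11, 3 had an unadjusted p-value under 0.05, 2 of these lower and 1 higher, against 21.9% of all genes in either direction. The median log2 fold change of the 11 was -0.18, and 0.01 with the length and GC trend removed, where 6 of the 11 were above 0. SCRIB, a basolateral polarity scaffold, had means of 90.5 and 90.0 TPM (log2 fold change -0.01, adjusted p-value 0.956), and LLGL2, its partner, 78.4 and 66.1 TPM without overlap between the groups (-0.25, adjusted p-value 0.109). DLG1 had means of 52.1 and 43.2 TPM (-0.28, adjusted p-value 0.298). Over the 4 lists, 1 of 34 tested genes was called, lower, against the 4.09% of all genes tested, and 31 of 34 had a log2 fold change below 0, as had 68.1% of all genes tested. With the length and GC trend removed it was 20 of 34, with a median of -0.08 against -0.19 before, and 46.9% of all genes.

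The genes whose profile over the 10 libraries was most like that of CLDN4, which had the largest change of the 7, were FXYD5, SERINC2 and AP1M2. Likeness was the root mean square difference of the centred log2(TPM + 1) values, which was 0.09 for each of the 3. FXYD5, also called dysadherin, had means of 96.6 and 58.6 TPM, SERINC2 of 34.2 and 17.7 TPM, and AP1M2, the epithelial subunit of the AP-1 sorting adaptor, of 68.7 and 42.5 TPM. CLDN7 came 7th of 13580 genes, at 0.10, and CLDN3 8388th, at 0.42.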

How the data were processed

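Transcriptomes of 5 HCT116-WT and 5 HCT116-CD276KO cultures were compared, with groups and replicate numbers from the sample titles. Per the paper's methods, single 50 bp reads of strand-specific libraries were mapped to hg38 with STAR 2.5.2b and quantified over Ensembl genes with RSEM 1.3.0 and featureCounts 1.5.1. The authors deposited TPM values with 2 decimals, and which program gave them is not given in the sources used here. TPM carry no read counts, so the depth behind a value is unknown and the precision rests on the 5 cultures. Symbols were assigned to 56947 of 58050 identifiers. Positions, lengths and GC content came from GENCODE 44 on hg38, a newer annotation than that of the authors, and start regions from RefSeq.

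The genes and lists were chosen with earlier results of these data known. The study used limma/voom on counts. As the values are TPM, limma 3.58.1 (R 4.3.3) with a variance trend was run on log2(TPM + 1) over the 13581 genes that averaged 1 TPM or more, with Benjamini-Hochberg adjustment, and tested on simulated data. Two-sided exact permutation tests were run on single genes and ratios (Python 3.11.15, scipy 1.17.1). A planned gene of the lists, and a ratio that needs it, are not reported here. Named were the 9 genes, CD276, from each list the genes called and the 3 with the highest mean, and the 3 genes most like the gene of the 9 with the largest change. GRHL2, ELP5, MLXIPL and the genes that share exons with 1 of the 9 were named after their values were seen. The TATA and GC box motifs were also chosen then.

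Alternatives were a pseudocount of 0.1, no minimum or a mean of at least 5 TPM, median-of-ratios scaling, quantile normalization, a robust fit of the variance, a replicate block, leaving out 1 library at a time, ratios of mean TPM, and removal of each library's trend with length and GC content by local regression with a span of 0.3 over 13472 genes, which also centres each library.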

Additional observations from a re-analysis of the deposited data

Results flagged for a closer look

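For 20 named genes, or 40 sets of 5 libraries, the extreme library was compared with its neighbour, and in 3 sets the gap was over 0.71 of the range, which chance gives in about 1 of 20 sets, or 2 of 40. All 3 were the high value of HCT116-WT replicate 3: 142.11 TPM for CLDN4 (gap 0.731 of the range), 177.99 TPM for LSR (0.742) and 89.86 TPM for LLGL2 (0.812). This library had the strongest trend with GC content, a Spearman correlation of 0.607 over genes, whose part in these values was not tested. Without it the log2 fold change of CLDN4 was -0.70 (adjusted p-value 0.000126 from limma), against -0.76 with it.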

How the results depend on the processing

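CLDN4 and CLDN7 stayed lower, with an adjusted p-value under 0.05 from limma, in every alternative fitted with limma, and they were lower in the ratio of mean TPM, which has no test, with log2 fold changes from -0.79 to -0.66 and from -0.62 to -0.49. CLDN3, CLDN12, CLDN15 and TJP1 kept their direction in the alternatives run and stayed above 0.05 in those fitted with limma. F11R did so too except with the replicate block, where its log2 fold change of -0.345 had an adjusted p-value of 0.0455, against 0.0781 to 0.285 with 1 library left out. The replicate numbers share no stated culture or batch, and same-numbered libraries had correlations of deviations between -0.181 and 0.119, so they were not taken as pairs.

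The number of called genes among all those tested was 662. It was 378 with the replicate block and 1299 after the length and GC correction, and lay between 340 and 886 when 1 library was dropped (343, 370, 422 and 340 without HCT116-WT replicates 1, 2, 4 and 5, and 404 and 381 without HCT116-CD276KO replicates 3 and 4). Of 34 other tight junction genes 11 had an unadjusted p-value under 0.05, against 21.9% of all genes tested. By limma 1 was called, PATJ, against 4.87%. The count was 0 with no minimum level and 0 with the replicate block (adjusted p-value of PATJ 0.0614), 2 with quantile normalization (PATJ and OCLN), 3 after the length and GC correction (PATJ and OCLN lower, AMOTL2 higher) and 0 to 2 when 1 library was dropped. None was called, a count of 0, without HCT116-WT replicates 1, 4 or 5 and without HCT116-CD276KO replicates 2, 3 or 4. The count was 1 without HCT116-WT replicate 2, and 2 without HCT116-WT replicate 3 and without HCT116-CD276KO replicates 1 or 5. Over the fits with 1 library dropped, PATJ was called in 3, OCLN in 2, and MARVELD3 and YBX3 in 1 each. Why these counts moved was not tested.

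With the replicate block the log2 ratio of CLDN4 to CLDN3 differed by the same -0.82, with an exact p of 0.0625, the smallest that 5 pairs allow. The ratio of CLDN4 to CLDN7, chosen after its values were seen, differed by -0.17 there. As the reads behind each value are unknown, no limit of detection is given for CLDN1 and CLDN2.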
